A study of Mus musculus with 10 samples.

Results

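The proteasome genes of the heart were collected by name, as every protein-coding gene whose symbol begins with Psm, followed by a letter from a to g and a digit. This gave 50 of the 54532 genes in the table, and 4 genes of other biotypes with such a symbol were left out. Of the 50 genes, 44 encode constitutive subunits, regulators or assembly factors and 5 (*Psmb8*, *Psmb9*, *Psmb10*, *Psme1* and *Psme2*) are those of the immunoproteasome. The remaining one, *Psmc3ip*, matches by name only and encodes a partner of the meiotic recombinases. Counts over the 50 genes, or over those tested, include it. Values were compared between the hearts of 5 *Rit1* M90I/+ mice given vehicle and 5 *Rit1* M90I/+ mice given trametinib, an allosteric inhibitor of MEK1 and MEK2 (MEKi), by daily dosing at 1 mg/kg that began at 4 weeks of age and lasted 20 weeks. The mice carried a Noonan syndrome variant in the germline, obtained by crossing conditional *Rit1* M90I mice to a cytomegalovirus-Cre deleter line, and since every heart analysed here carried it, its own effect cannot be read from these samples. The labels call the hearts of a group biological replicates.

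Proteins marked with ubiquitin are degraded by the proteasome, a barrel in which rings of beta subunits, between rings of alpha subunits, hold the proteolytic sites. A regulatory particle on either end recognizes ubiquitin and unfolds the substrate with a ring of ATPases. Interferon signalling induces replacements of the 3 catalytic beta subunits and a different activator cap, and the resulting immunoproteasome supplies peptides for antigen presentation. In heart muscle the proteasome takes part in the turnover of sarcomere proteins.

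Several features of the hearts bear on every value that follows. From 13647167 to 18474002 fragments per heart were recovered from the deposited FPKM (fragments per kilobase of gene length, scaled to library size). The tissue label held, with the cardiomyocyte genes *Myh6* and *Tnnt2* at no less than 1696 and 543.9 FPKM in any heart. *Xist* had from 1456 to 2199 fragments in MEKi-treated hearts and at most 2 in vehicle hearts, while the Y-linked *Ddx3y* had from 814 to 901 fragments in vehicle hearts and 0 in MEKi-treated hearts. The split by treatment was thus also a split by sex-linked transcripts, so that for any difference below the parts of treatment and sex cannot be told apart. Atrial markers summed to between 2.38 and 837.4 FPKM in vehicle hearts and between 1.82 and 678.5 FPKM in MEKi-treated hearts, so atrial transcripts varied widely within both groups. Vehicle hearts 4 and 5 and MEKi heart 2 were at 837.4, 382.6 and 678.5 FPKM, and no other heart exceeded 38.1 FPKM. The samples may thus differ in how much atrium they held, which was not tested. Vehicle heart 3 had the highest mitochondrial share and the largest deviations by gene length of all hearts. Mitochondrial genes took 35.0% of its fragments, and its median deviation from the gene mean was -0.16 (log2) over the 4201 shortest genes tested and 0.12 over the 4201 longest. The parts of sex-linked transcripts, of gene length and of mitochondrial content in the values of proteasome genes were not tested.

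Transcripts of the core particle were abundant in these hearts. Levels are given as the mean FPKM over the 10 hearts. In the alpha ring, which gates the barrel, they ran from 12.8 FPKM for *Psma3* to 95.6 FPKM for *Psma6*, leaving out the testis subunit *Psma8*. Constitutive beta subunits ran from 24.8 FPKM for *Psmb7* to 138.5 FPKM for *Psmb5*. The ATPases that unfold substrates lay between 18.1 (*Psmc2*) and 88.2 FPKM (*Psmc3*), and the 11 non-ATPase subunits of the regulatory particle, which bind and deubiquitinate substrates, between 7.74 (*Psmd11*) and 43.7 FPKM (*Psmd2*). Assembly factors were lower as a rule. The chaperones of the regulatory particle (*Psmd5*, *Psmd9* and *Psmd10*) were at 2.27, 2.58 and 6.68 FPKM, and those of the core particle ran from 1.71 (*Psmg3*) to 24.7 FPKM (*Psmg4*). The inhibitor *Psmf1* was at 3.07 FPKM.

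The order of these levels rests in part on the length by which fragments were divided. For 46 of the 50 genes, the length in the table equals the summed exons of all GENCODE M21 transcripts of the gene, which was a median of 1.62 times the length of the main transcript (the longest with an APPRIS principal tag) and up to 3.36 times for *Psma7*. Dividing by the main transcript instead, a choice made after the data were seen, moved *Psma7* from rank 11 to rank 3 of the 50 genes and *Psmb7* from rank 23 to rank 14, and *Psmb6* took the first rank from *Psmb5* (189.8 against 138.5 FPKM). Constitutive beta subunits then spanned a 2.59-fold range in place of 5.58-fold. The alpha ring spanned 8.20-fold in place of 7.44-fold. The length enters every heart alike, so it does not touch the differences between groups.

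**Figure D1:**
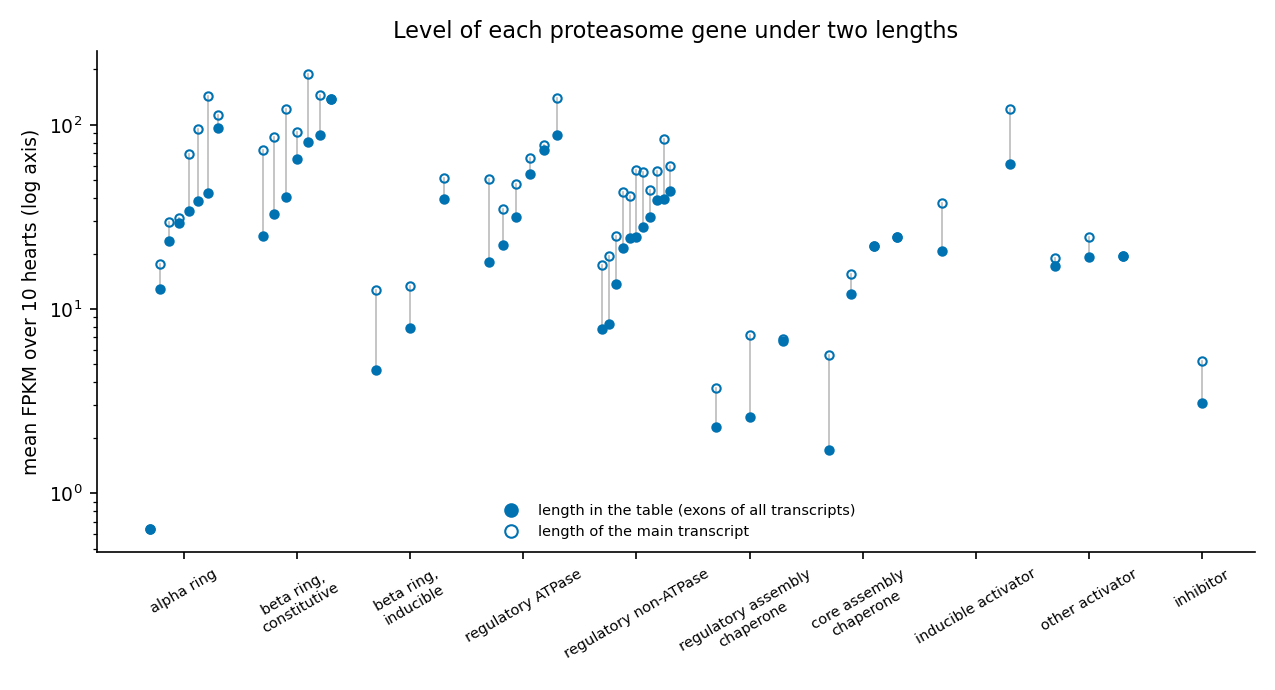
Mean FPKM over the 10 hearts (log axis) of each proteasome gene by role, with filled circles for the length in the table, open circles for the length of the main transcript and a line joining the values of a gene. *Psmb11* and *Psmc3ip* are not drawn. *Psmb7* moves from 24.8 to 73.2 FPKM and *Psmb5* stays at 138.5 FPKM.

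To ask whether MEK inhibition went with a change in proteasome transcripts, limma was fitted to log2(FPKM + 0.1) over the 12602 genes that averaged at least 0.5 FPKM. Of the 50 proteasome genes, 49 passed this filter. None had an adjusted p under 0.05 (limma, Benjamini-Hochberg adjustment), against 0.0794% of all genes tested, and the lowest adjusted p of a proteasome gene was 0.550. One gene, *Psmb7*, had an unadjusted p under 0.05, which is 2.04% of the 49 genes beside 7.62% of all genes tested (3.67% in the direction of higher with MEKi). It was also the only proteasome gene whose groups did not overlap, again 2.04%, beside 1.64% in either direction and 0.794% higher with MEKi. Both shares rest on 1 gene.

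Most proteasome genes had a small positive log2 fold change. It was above 0 for 39 of the 49 genes, *Psmc3ip* included, where this held for 52.1% of all genes tested. The direction of no single gene but *Psmb7* was beyond the spread between hearts at an unadjusted p of 0.05. The median was 0.08 for the 43 constitutive genes tested and 0.21 for the 5 immunoproteasome genes, beside 0.01 for all genes tested. Proteasome genes share fluctuations between hearts, so this count does not stand for 39 separate observations. In the beta ring all 7 constitutive genes tested were on the positive side, from 0.07 to 0.34, as were all 6 ATPases, from 0.02 to 0.13, and 10 of 11 non-ATPase subunits, from -0.11 (*Psmd8*) to 0.17 (*Psmd1*). Values below 0 came from the activators *Psme2b*, *Psme3* and *Psme4*, from *Psmd5*, *Psmd8*, *Psmd9* and *Psmg3*, from *Psma4* and *Psma8*, and from *Psmb10*. On a TPM scale, which moved the median of all genes to 0.09, the constitutive median was 0.16.

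**Figure D2:**
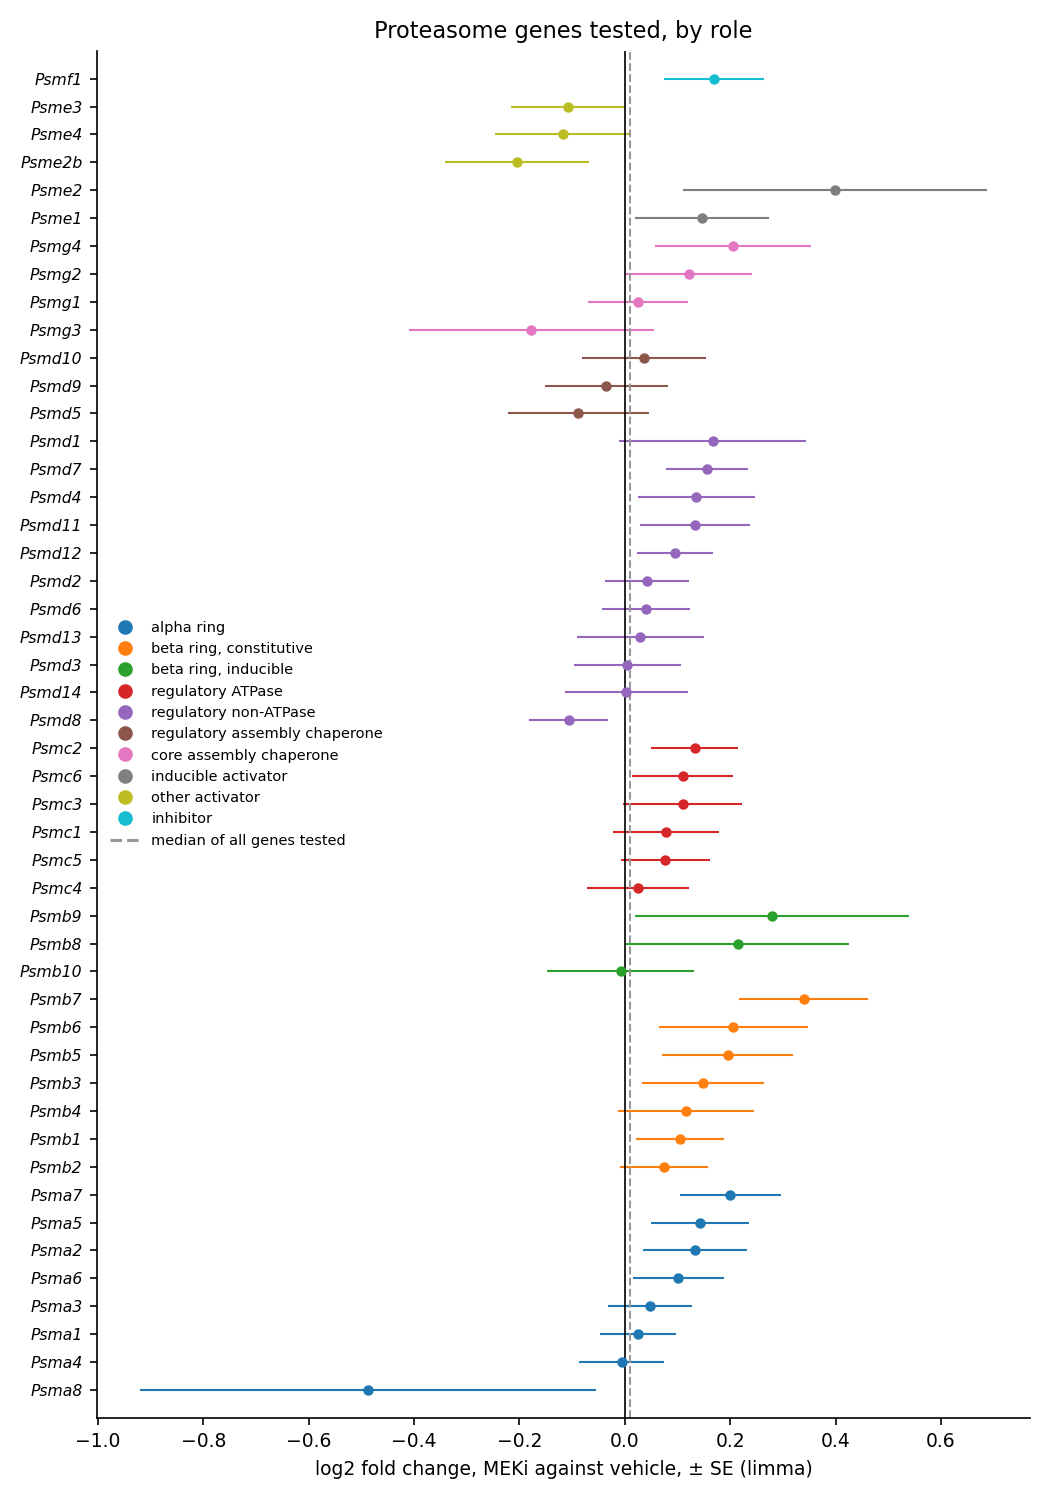
Log2 fold change of MEKi-treated against vehicle hearts with its SE for each proteasome gene tested, coloured by role (*Psmc3ip* is not drawn). The dashed line marks the median of all genes tested, 0.01, and most points lie to its right.

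The count of proteasome genes turned on 1 library. Without vehicle heart 1, which had the highest value of 13 of the 49 genes, 8 genes (16.3%) had an unadjusted p under 0.05, beside 9.84% of all genes in the same fit. These were *Psma7*, *Psmb3*, *Psmb5*, *Psmb6*, *Psmb7*, *Psmg4* and the name match *Psmc3ip* on the positive side and *Psme3* on the negative side. The lowest adjusted p among them was 0.383 (limma).

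The catalytic sites were compared next, since each constitutive subunit has an inducible counterpart that takes its place in the immunoproteasome. *Psmb5* encodes the chymotrypsin-like site, *Psmb6* the caspase-like site and *Psmb7* the trypsin-like site. The products of *Psmb8*, *Psmb9* and *Psmb10*, in this order, take their places. On GRCm38, *Psmb9* (chromosome 17, 34181988 to 34187764, minus strand) and *Psmb8* (chromosome 17, 34197721 to 34201454, plus strand) flank *Tap1*, the peptide transporter gene, in the major histocompatibility complex. *Psmb9* and *Tap1* run head to head and share 212 bases, and 495 bases separate *Tap1* from *Psmb8*. *Psmb10* lies apart from them on chromosome 8 (105935735 to 105938444, minus strand). Promoter sequences from RefSeq (GRCm38.p6; 250 bases before and 50 after the start) were matched by symbol for 42 of the 50 genes. Those of *Psmb5* and *Psmb6* and of the inducible genes *Psmb9* and *Psme1* are shown 5′ to 3′, to set a constitutive beside an inducible promoter. Capitals mark TGACNNNGC, the core of the antioxidant response element through which NRF1 and NRF2 act, and GAAA and GAAA spaced by any 2 bases, an interferon response element, on either strand (in *Psme1* the reverse complement is marked). The promoter of *Psmb9* shown holds neither. The sequences shown for *Psmb9* and *Psme1* lie wholly inside the spans of these genes, so bases upstream of the spans were not searched.
Psmb5, chr14:54617946-54618245, minus strand: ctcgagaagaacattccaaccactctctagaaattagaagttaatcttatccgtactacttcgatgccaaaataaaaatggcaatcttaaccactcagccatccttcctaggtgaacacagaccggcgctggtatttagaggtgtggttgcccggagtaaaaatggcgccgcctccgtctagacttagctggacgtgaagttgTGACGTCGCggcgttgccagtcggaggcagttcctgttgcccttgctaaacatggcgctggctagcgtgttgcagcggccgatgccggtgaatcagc
Psmb6, chr11:70525107-70525406, plus strand: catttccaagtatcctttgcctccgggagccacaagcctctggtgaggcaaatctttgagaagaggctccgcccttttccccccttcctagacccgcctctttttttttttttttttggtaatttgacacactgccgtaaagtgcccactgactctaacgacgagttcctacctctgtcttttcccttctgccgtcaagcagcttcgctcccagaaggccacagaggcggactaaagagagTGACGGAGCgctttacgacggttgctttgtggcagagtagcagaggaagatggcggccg
Psmb9, chr17:34187281-34187580, minus strand: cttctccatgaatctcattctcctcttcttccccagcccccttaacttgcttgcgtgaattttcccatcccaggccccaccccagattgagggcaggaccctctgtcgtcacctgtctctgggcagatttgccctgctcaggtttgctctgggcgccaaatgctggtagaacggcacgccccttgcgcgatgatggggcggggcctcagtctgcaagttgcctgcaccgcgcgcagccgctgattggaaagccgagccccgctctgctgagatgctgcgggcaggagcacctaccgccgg
Psme1, chr14:55578244-55578543, plus strand: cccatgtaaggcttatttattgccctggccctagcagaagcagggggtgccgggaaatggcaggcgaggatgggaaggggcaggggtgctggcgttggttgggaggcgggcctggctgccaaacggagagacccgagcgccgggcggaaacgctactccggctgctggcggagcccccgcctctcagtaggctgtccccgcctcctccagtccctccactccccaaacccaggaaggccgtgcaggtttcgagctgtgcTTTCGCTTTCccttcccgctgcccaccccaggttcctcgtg

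Matches to TGACNNNGC were found in promoters of 6 of the 36 constitutive genes with a sequence (*Psmb5*, *Psmb6*, *Psmc6*, *Psmd12*, *Psmd9* and *Psme4*) and in 0 of the 5 immunoproteasome genes, where 12.4% of all 32851 promoters hold one. In *Psmb5* the match began 47 bases and in *Psmb6* 9 bases before the start. The interferon element was found for 1 of the 5 immunoproteasome genes (*Psme1*) and for 4 of 36 constitutive genes (*Psmb3*, *Psmd4*, *Psmd9* and *Psmg4*), beside 3.44% of all promoters. CCAAT, the letters of the NF-Y box, occurred in promoters of 13 of 36 constitutive genes and 1 of 5 immunoproteasome genes (*Psmb9*), beside 37.4% of all promoters. A match describes these letters only, and a missing match holds only for the bases around the RefSeq start. For *Psmb8*, *Psmb9* and *Psme1* these bases lay wholly inside the gene span. The same held for the constitutive genes *Psmb11*, *Psmd5*, *Psmd9*, *Psmd13* and *Psmf1*.

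*Psmb5* was at 162, 130, 99.4, 140 and 118 FPKM in vehicle hearts 1 to 5 and at 144, 158, 132, 159 and 142 FPKM in MEKi-treated hearts 1 to 5. The vehicle hearts spread more widely and enclosed all MEKi values. The log2 fold change of 0.20 (SE 0.12, adjusted p = 0.756 by limma) was within the spread between hearts. Its counterpart *Psmb8* stood at 11.0, 6.34, 4.50, 7.72 and 7.51 FPKM under vehicle and at 9.68, 10.5, 8.16, 7.09 and 6.58 FPKM under MEKi. Vehicle heart 1 was again the highest and vehicle heart 3 the lowest of the 10 hearts, with a log2 fold change of 0.21 (SE 0.21, adjusted p = 0.846 by limma). Without vehicle heart 3 it was 0.05 and without vehicle heart 1 it was 0.37, and that of *Psmb5* was 0.10 and 0.28.

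*Psmb6* had 96.6, 73.8, 54.9, 79.2 and 73.3 FPKM in the vehicle group and 80.1, 97.0, 82.3, 97.3 and 74.5 FPKM in the MEKi group. The groups overlapped, with a log2 fold change of 0.21 (SE 0.14, adjusted p = 0.771 by limma), which was 0.10 without vehicle heart 3 and 0.30 without vehicle heart 1. For *Psmb9* the vehicle values were 4.56, 3.89, 2.06, 5.10 and 5.82 FPKM and the MEKi values 6.27, 5.81, 5.56, 3.35 and 4.31 FPKM. Vehicle heart 3 was the lowest of all hearts, and the log2 fold change of 0.28 (SE 0.26, adjusted p = 0.829 by limma) became 0.04 without it. The neighbour *Tap1* was likewise lowest in vehicle heart 3, at 1.80 FPKM beside 2.57 to 5.58 FPKM in the other hearts (log2 fold change 0.27 ± 0.25 SE, adjusted p = 0.824 by limma), and its log2 fold change was 0.07 without that heart. *Psmb9* and *Tap1* could exchange reads over the bases that they share.

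*Psmb7* (chromosome 2, 38588036 to 38644087, minus strand) was the only catalytic gene whose groups did not overlap. It was at 24.5, 24.6, 19.4, 23.4 and 17.8 FPKM under vehicle and at 29.7, 24.6, 24.7, 33.0 and 26.6 FPKM under MEKi. Every MEKi value was above every vehicle value, but by a narrow margin, since the lowest MEKi value was 24.60 and the highest vehicle value 24.57 FPKM. The means were 21.9 ± 3.14 and 27.7 ± 3.62 FPKM (SD, n = 5 each). Its log2 fold change of 0.34 (SE 0.12) had an unadjusted limma p of 0.0169 and an adjusted p of 0.550, so it did not pass the threshold over all genes. From 885 to 2021 fragments per heart lay behind these values. *Nek6* overlaps *Psmb7* on the opposite strand, and since no source used here states whether the libraries kept strand, reads of the genes could mix where they overlap. *Nek6* was at no more than 0.776 FPKM in any heart.

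Its inducible counterpart covered a similar range in both groups. *Psmb10* was at 51.5, 40.4, 33.6, 37.7 and 34.1 FPKM under vehicle and at 44.7, 45.2, 31.1, 36.8 and 37.8 FPKM under MEKi, means of 39.5 ± 7.29 and 39.1 ± 5.87 FPKM (SD, n = 5 each). The means nearly coincided (log2 fold change -0.01 ± 0.14 SE, adjusted p = 0.993 by limma). By the lengths in the table *Psmb10* exceeded *Psmb7* 1.58-fold over the 10 hearts, and by main transcripts it was 0.698 times as high. *Psmb8* and *Psmb9* were at 0.0571 and 0.0578 times their counterparts by the lengths in the table, and at 0.0959 and 0.0667 times by main transcripts. Whichever length was used, *Psmb10* was thus the inducible catalytic gene with the highest level relative to its counterpart.

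**Figure D3:**
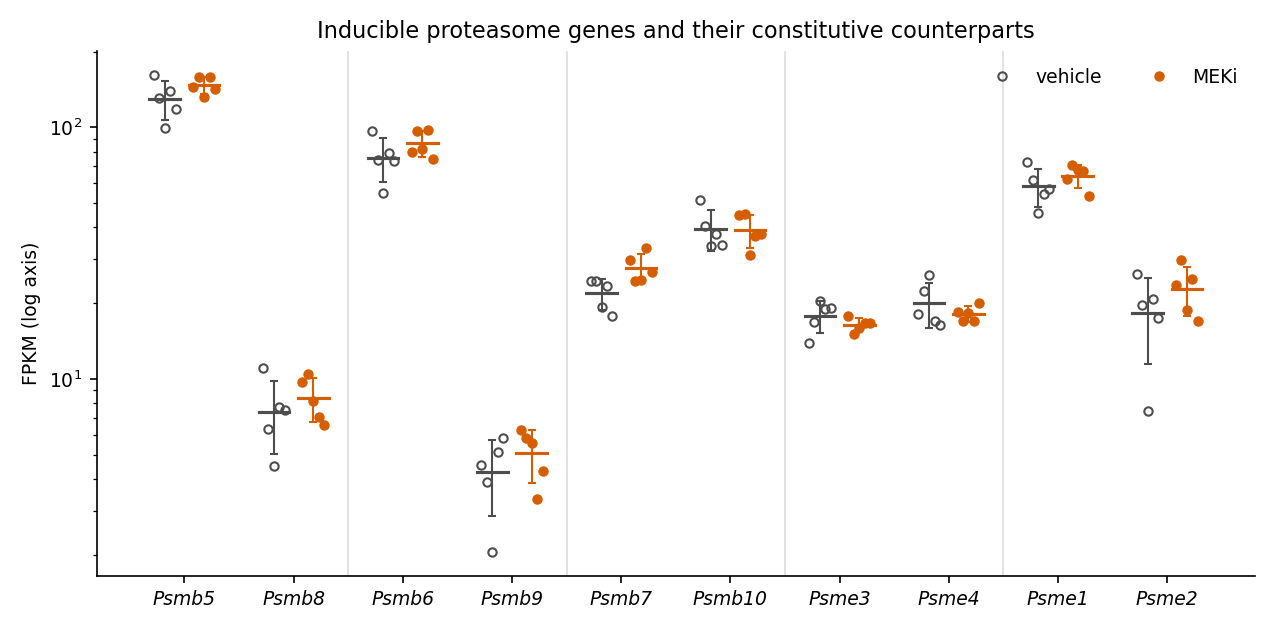
FPKM per heart (log axis) of the inducible genes and their constitutive counterparts, with open points for vehicle, filled points for MEKi, and bars for the mean ± SD (n = 5 each). *Psmb8* and *Psmb9* lie more than a log unit under *Psmb5* and *Psmb6*, and vehicle heart 3 gives the lowest points of *Psmb5*, *Psmb6*, *Psmb8*, *Psmb9*, *Psme1* and *Psme2*.

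The share of inducible subunit in each pair was followed as the log2 ratio of FPKM + 0.1 of a heart, which cancels fluctuations that the pair shares. For *Psmb8* to *Psmb5* it was -4.15 ± 0.24 with vehicle and -4.13 ± 0.28 with MEKi (SD, n = 5 each), and for *Psmb9* to *Psmb6* -4.16 ± 0.40 and -4.09 ± 0.44. These differences, 0.02 (SE 0.17) and 0.07 (SE 0.27), were within the spread between hearts (two-sided exact permutation tests, p = 0.913 and 0.770). The ratio of *Psmb10* to *Psmb7* was 0.84 ± 0.16 with vehicle and 0.49 ± 0.27 with MEKi, a difference of -0.35 (SE 0.14; exact permutation test, p = 0.0397). It did not pass after adjustment over the 3 ratios (adjusted p = 0.119). Vehicle hearts lay between 0.69 and 1.07 and MEKi-treated hearts between 0.16 and 0.87, with MEKi heart 2 inside the vehicle range. Without that heart the groups did not overlap (difference -0.44, exact permutation test, p = 0.00794), and without any of the other 9 hearts in turn the unadjusted p was between 0.0556 and 0.0873. With the replicate number as a block the p was 0.125.

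**Figure D4:**
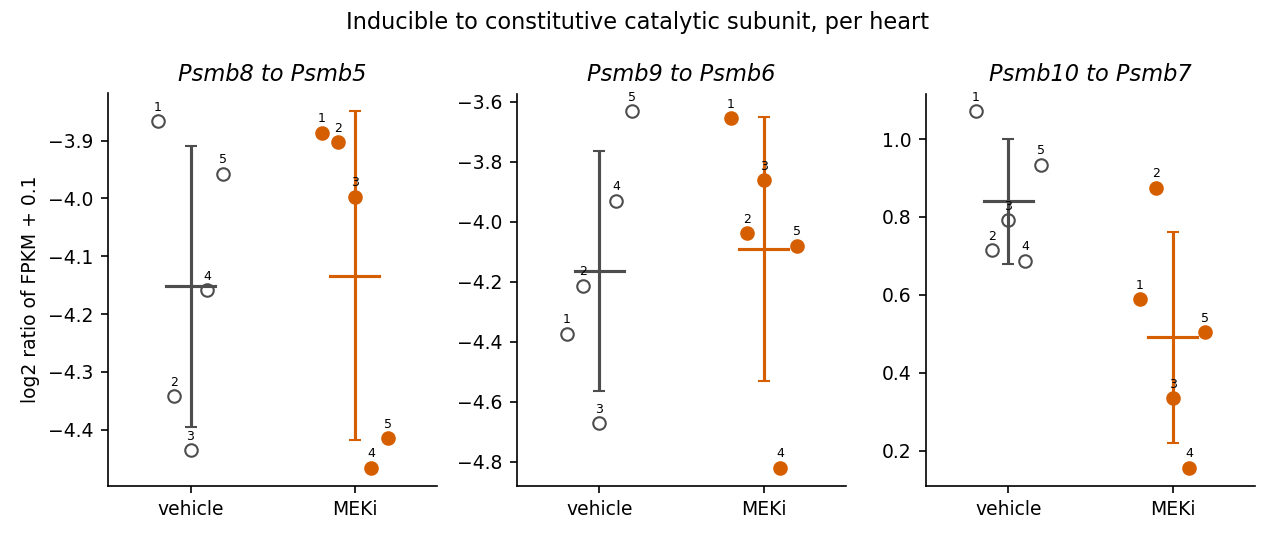
Log2 ratio of inducible to constitutive FPKM per heart for the 3 catalytic pairs, with replicate numbers beside the points and bars for the mean ± SD (n = 5 each). Panels have separate vertical axes. The first 2 pairs overlap widely, and for *Psmb10* to *Psmb7* 4 of 5 MEKi-treated hearts lie under the lowest vehicle heart, 0.69.

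Activators cap the barrel in place of the regulatory particle. *Psme1* and *Psme2*, which form the interferon-inducible cap, lie 5911 bases apart on chromosome 14. *Psme1* (55578123 to 55581529, plus strand) was at 73.0, 61.6, 45.5, 54.3 and 57.1 FPKM under vehicle and at 62.2, 70.7, 67.7, 66.9 and 53.1 FPKM under MEKi. MEKi values sat within the vehicle range (log2 fold change 0.15 ± 0.13 SE, adjusted p = 0.820 by limma), and without vehicle heart 3 the log2 fold change was 0.06. *Emc9* overlaps *Psme1* on the opposite strand, so reads of these genes could mix where they overlap. It was at 9.27 to 21.2 FPKM, lowest in vehicle heart 3 and highest in vehicle heart 1, as was *Psme1*. *Psme2* (55587441 to 55591113, minus strand) was at 26.2, 19.6, 7.46, 20.8 and 17.5 FPKM under vehicle and at 23.6, 29.8, 18.8, 24.9 and 17.0 FPKM under MEKi. Vehicle heart 3 was the lowest of all hearts, at 7.46 FPKM beside 17.5 FPKM for the next of its group. The log2 fold change of 0.40 (SE 0.29, adjusted p = 0.780 by limma) became 0.11 without that heart.

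*Psme2* cannot be read alone, because *Psme2b* on chromosome 11 (48945354 to 48946190, minus strand) is a near copy. Their main transcripts are identical at 789 of 794 aligned bases (99.4%), so reads of these genes could be exchanged or dropped. *Psme2b* was at 18.4, 20.6, 18.2, 23.3 and 22.9 FPKM under vehicle and at 15.4, 19.3, 21.3, 20.8 and 13.8 FPKM under MEKi, with a log2 fold change of -0.21 (SE 0.14, adjusted p = 0.757 by limma). Vehicle heart 3, at 18.2 FPKM, was here close to vehicle heart 1, at 18.4 FPKM. Added together, *Psme2* and *Psme2b* were at 39.0 ± 7.72 FPKM under vehicle and 40.9 ± 7.02 FPKM under MEKi (SD, n = 5 each).

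The other activators had lower MEKi means. *Psme3*, whose product forms a nuclear cap, was at 13.9, 16.8, 20.4, 19.0 and 19.2 FPKM under vehicle and at 17.7, 15.1, 16.0, 16.6 and 16.7 FPKM under MEKi (log2 fold change -0.11 ± 0.11 SE, adjusted p = 0.849 by limma). *Psme4*, which encodes the large single-chain activator PA200, was at 18.1, 22.4, 26.0, 17.0 and 16.4 FPKM under vehicle and at 18.5, 16.9, 18.2, 17.0 and 20.1 FPKM under MEKi (log2 fold change -0.12 ± 0.13 SE, adjusted p = 0.869 by limma). For both, vehicle heart 3 was the highest of all hearts, opposite to *Psme1* and *Psme2*, and without it the log2 fold changes were -0.06 and -0.02.

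Within the alpha ring, *Psma7* came nearest to a difference, at 40.0 ± 4.58 FPKM under vehicle and 45.8 ± 3.01 FPKM under MEKi (SD, n = 5 each; log2 fold change 0.20 ± 0.10 SE, adjusted p = 0.664 by limma). The lid subunit *Psmd7* was at 37.0 ± 1.93 and 41.2 ± 2.72 FPKM (log2 fold change 0.16 ± 0.08 SE, adjusted p = 0.669 by limma). Neither separated the groups. *Psma6*, the highest alpha gene by the lengths in the table, was at 92.2 ± 6.42 and 99.0 ± 7.94 FPKM, and *Psma3*, the lowest, at 12.6 ± 0.672 and 13.1 ± 0.862 FPKM. Among ATPases, *Psmc3* was at 84.6 ± 8.68 and 91.7 ± 12.5 FPKM and *Psmc2* at 17.3 ± 1.57 and 18.9 ± 0.597 FPKM. The scaffold *Psmd2* was at 43.0 ± 1.71 and 44.4 ± 3.36 FPKM, and *Psmd11* at 7.38 ± 0.750 and 8.10 ± 0.841 FPKM. These differences were within the spread between hearts, with limma adjusted p between 0.744 and 0.934. At least 464 fragments lay behind every value of these 31 core and regulatory genes.

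Constitutive genes varied little from heart to heart. The residual SD within groups had a median of 0.15 (log2) over the 43 constitutive genes and 0.38 over the 5 immunoproteasome genes, beside 0.25 over all genes tested and 0.19 over the 1231 genes between 15.4 and 40.0 FPKM, the middle range of constitutive levels. A change of all hearts by a few percent would be within this spread for a single gene.

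Genes that are barely used in the heart complete the list. *Psmb11*, the thymus subunit, had 1 fragment in vehicle heart 3 and 0 in the other hearts, and was not tested. A count of 0 allows up to 3 fragments, which covers counting error only. *Psma8* had from 3 to 27 fragments per heart, at 0.737 ± 0.317 FPKM under vehicle and 0.534 ± 0.291 FPKM under MEKi (log2 fold change -0.49 ± 0.43 SE, adjusted p = 0.820 by limma). *Psmc3ip* had from 4 to 66 fragments, at 2.03, 0.420, 0.735, 1.38 and 0.151 FPKM under vehicle and at 1.38, 2.12, 1.98, 1.51 and 1.05 FPKM under MEKi (log2 fold change 1.04 ± 0.49 SE, adjusted p = 0.656 by limma). Its vehicle values spread over the wider range. The chaperone *Psmd10*, the one proteasome gene on chromosome X, was at 6.58 ± 0.622 and 6.79 ± 1.02 FPKM (log2 fold change 0.04 ± 0.12 SE, adjusted p = 0.961 by limma).

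Across single hearts, the median of the 5 immunoproteasome genes ranged more widely than that of the 43 constitutive genes, a median over more genes. Residual SD within groups was 0.54 for *Psme2*, 0.48 for *Psmb9* and 0.38 for *Psmb8*. For *Psmb10* (0.24) and *Psme1* (0.21) it was no higher than for the constitutive *Psmb6* (0.24). The median deviation of the 5 immunoproteasome genes from their gene means (log2) was 0.41, 0.01, -0.76, 0.01 and -0.09 in vehicle hearts 1 to 5 and 0.28, 0.37, 0.09, -0.08 and -0.19 in MEKi-treated hearts 1 to 5. For the constitutive genes it was 0.07, -0.02, -0.09, -0.04 and -0.09 with vehicle and 0.03, 0.06, -0.03, 0.12 and 0.03 with MEKi. Vehicle heart 3 held the lowest value of 4 of the 5 immunoproteasome genes and of 14 of the 43 constitutive genes, and MEKi heart 4 the highest of 14 constitutive genes. The median log2 fold change of the immunoproteasome genes fell from 0.21 to 0.05 without vehicle heart 3, while that of the constitutive genes went from 0.08 to 0.06. In the same heart short genes were low and long genes high across the whole table. Removing the trend with gene length, an alternative added after the data were seen, gave medians of 0.20 and 0.05.

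**Figure D5:**
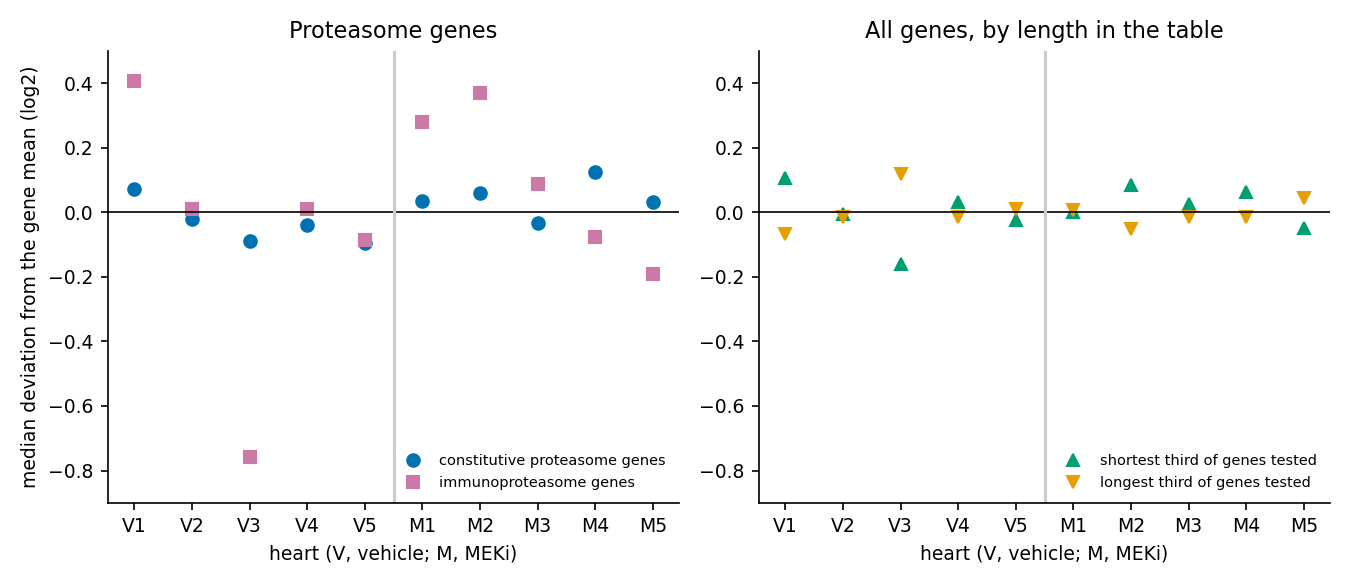
Median deviation from the gene mean (log2) in each heart, on the left for the constitutive (circles) and immunoproteasome (squares) genes and on the right for the 4201 shortest (triangles up) and 4201 longest (triangles down) of all genes tested. Vehicle heart 3 has the lowest value for immunoproteasome genes, -0.76, and for short genes, -0.16, and vehicle heart 1 the highest, 0.41 and 0.11.

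Immunoproteasome genes are expressed by immune and vascular cells as well as by muscle, and in whole tissue fewer cells of a type and less RNA per cell cannot be told apart. Of 13 markers of blood and immune cells, 11 were tested. While 52.1% of all genes tested had a positive log2 fold change, 10 of these 11 markers had a negative one (median -0.36). Their summed level was between 504 and 894 FPKM in vehicle hearts and between 404 and 577 FPKM in MEKi-treated hearts. The 894 FPKM came from vehicle heart 5 alone, and the next vehicle heart was at 603 FPKM. None had an adjusted p under 0.05, and 4 had an unadjusted p under 0.05, all lower with MEKi, where 3.94% of all genes tested did. These were the macrophage genes *Lyz2* (281 ± 67.0 and 199 ± 22.0 FPKM, with groups that did not overlap, limma adjusted p = 0.456) and *Csf1r* (adjusted p = 0.596) and the myeloid genes *Itgam* (adjusted p = 0.584) and *S100a8* (adjusted p = 0.425). Groups did not overlap in this direction for 0.849% of all genes tested. Each of these 4 genes had its highest value in vehicle heart 5. Without that heart the log2 fold change went from -0.48 to -0.35 for *Lyz2* and from -0.36 to -0.25 for *Csf1r*. For *Itgam* it went from -0.70 to -0.54. The T cell gene *Cd3e* was at no more than 0.255 FPKM, and the B cell genes *Ms4a1* and *Cd79a* reached 0.341 and 3.77 FPKM. The log2 fold changes of the 5 immunoproteasome genes ran from -0.01 (*Psmb10*) to 0.40 (*Psme2*). The part of cell composition was not tested.

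Interferon and antigen-presentation genes showed no difference past the threshold. Of 18 listed, 17 were tested, 0 had an adjusted or unadjusted p under 0.05 by limma (0.0794% and 7.62% of all genes tested did), 10 had a positive and 7 a negative log2 fold change (52.1% of all genes tested were positive), and the median was 0.04. *Ifng* itself was under the filter, at no more than 0.0918 FPKM in any heart.

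The remaining machinery of the pathway was read from 28 genes for ubiquitin, its activating enzymes, shuttle receptors, muscle ubiquitin ligases, proteasome maturation and the transcription factors of proteasome genes, of which 27 were found by symbol and tested. None had an adjusted p under 0.05. An unadjusted p under 0.05 was found for 3, all higher with MEKi, where 3.67% of all genes tested passed in this direction, and the median log2 fold change was 0.08. The ubiquitin gene *Ubb* was at 233 ± 37.9 and 220 ± 22.9 FPKM (SD, n = 5 each; log2 fold change -0.08 ± 0.12 SE, adjusted p = 0.921 by limma).

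*Trim63* encodes MuRF1, a muscle ubiquitin ligase that marks sarcomere proteins for the proteasome. It was at 38.4, 35.6, 38.9, 36.7 and 25.7 FPKM under vehicle and at 50.1, 42.0, 50.5, 49.0 and 38.3 FPKM under MEKi (log2 fold change 0.40 ± 0.13 SE, adjusted p = 0.481 by limma). MEKi heart 5 was the only one of its group within the vehicle range. *Fbxo32*, which encodes the muscle ligase subunit atrogin-1, was at 9.47 ± 1.25 and 11.4 ± 1.55 FPKM (log2 fold change 0.26 ± 0.12 SE, adjusted p = 0.652 by limma). *Nfe2l1*, which encodes NRF1, the factor that raises proteasome genes when degradation is impaired, was at 58.7 ± 7.58 and 63.8 ± 13.4 FPKM, a difference under the spread of the hearts (log2 fold change 0.11 ± 0.14 SE, adjusted p = 0.897 by limma). The core maturation factor *Pomp* was at 16.5 ± 2.75 and 16.3 ± 2.35 FPKM (log2 fold change -0.01 ± 0.14 SE, adjusted p = 0.988 by limma).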

How the data were processed

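RNA from hearts was selected by poly(A) and sequenced. Per the labels, the submitters' processing notes name fastp, STAR 2.5, HTSeq 0.6.1 and mm10, without the role of each. The authors deposited FPKM, scaled by gene length and a library size per heart. No depth is given, but after multiplication by gene length, 100% of the values of each heart were whole multiples (within 0.01) of 1 step, which gave the fragments. Coordinates are those of GRCm38 (positions equal those of GENCODE M21 for 98.3% of 54409 shared genes).

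Proteasome genes and lists were chosen with earlier results of these data known. Hearts were grouped by their labels. Log2(FPKM + 0.1) was fitted with limma 3.58.1 in R 4.3.3 (eBayes with a trend, two-sided, Benjamini-Hochberg adjustment) for genes averaging at least 0.5 FPKM. The fit was also run on simulated data, but with changes larger than those of nearly all proteasome genes here. Ratios were compared over all 252 assignments of hearts in Python 3.11.15 with numpy 2.4.6. The smallest possible p was 0.00794. Values are given per heart for the immunoproteasome genes, their counterparts, other activators and genes with an unadjusted p under 0.05, and otherwise for the extremes of a role. *Psma7*, *Psmd7*, *Psmd10*, *Psmc3ip*, *Psme2b* and *Ubb* were named after their values were seen. Alternatives were pseudocounts of 1 and 0.01, no filter, a mean of at least 5 FPKM, TPM, quantile normalization, other variance models, array weights, voom on the fragments, a replicate block, omission of X, Y and mitochondrial genes, and leaving out each heart. Removal of the length trend and main transcript lengths were added after the data were seen. The gene *Paaf1* was not analysed here, and the values of some listed genes are not reported here. P-values measure the spread between these hearts.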

Additional observations from a re-analysis of the deposited data

How the results depend on the processing

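No proteasome gene had an adjusted p under 0.05 in any limma fit, and *Psmb7* had an unadjusted p under 0.05 in all of them. The count of proteasome genes higher with MEKi at an unadjusted p under 0.05, 1 as reported, was 4 on the TPM scale (8.16% of proteasome genes called in either direction, beside 8.01% of all genes), 3 with array weights (6.12% beside 9.51%) or without a filter (6% beside 5.78%) and 2 with quantile normalization or voom (4.08% beside 7.74%), and from 1 to 7 without single hearts, the highest without vehicle replicate 1. The counts on the TPM scale and with array weights, quantile normalization or voom include *Psmc3ip*, which is no proteasome gene. With quantile normalization or voom it was the only one beside *Psmb7*. The count lower with MEKi, 0 as reported, was from 0 to 1 without single hearts. The constitutive median log2 fold change was 0.157 on the TPM scale, where the median of all genes was 0.0881, and from 0.0504 to 0.108 without single hearts. The immunoproteasome median ran from 0.0515 without vehicle replicate 3 to 0.320 without vehicle replicate 1. Over all genes, 10 had an adjusted p under 0.05, against 18 with array weights, 2 with a mean of at least 5 FPKM (fewer genes tested), 0 without X, Y and mitochondrial genes (924 at an unadjusted p under 0.05), and 5 to 13 without single hearts. No pairing by replicate number was seen, as same-numbered hearts deviated with correlations from -0.154 to -0.0209. Such correlations cannot exclude a pairing, and a shared litter or batch was not tested. With the replicate block, 4 genes passed the adjusted threshold. *Psmb7* and the name match *Psmc3ip* passed the unadjusted one (4.08% of the 49 genes beside 6.12% of all genes). The ratio of *Psmb10* to *Psmb7* then differed by -0.348 (exact sign-flip test, p = 0.125, where 0.0625 is the smallest possible). By ranks it differed by -3.8 mean ranks (exact permutation test, p = 0.0556), and without single hearts by -0.443 to -0.264. The ratio of *Psmb8* to *Psmb5* changed sign with a pseudocount of 1 (-0.00591) and by ranks (-0.2 mean ranks), and ran from -0.0521 to 0.102 without single hearts. That of *Psmb9* to *Psmb6* ran from -0.0540 to 0.255. Differences near 0 changed sign for *Psmb10* (0.07 on the TPM scale, -0.06 to 0.09 without single hearts), *Pomp* (0.07 on the TPM scale, 0.04 with array weights, -0.09 to 0.08) and *Nfe2l1* (-0.00739 to 0.16). The cause of these shifts was not tested. Depth limits *Psma8*, *Psmc3ip* and *Psmb11*, with at most 27, 66 and 1 fragments in a heart.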
